A study of Mus musculus with 9 samples.

Results

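Type I interferon stimulated genes of the ovary are described here across 3 groups of mice, as a list of 34 genes picked by symbol, of which 32 had a line among the 19517 genes of the authors' deposited table. Mx1 and Mx2 were not analysed here. The ovaries were those of BALB/c nude females, all of which carried tumours grown from cells of the human breast cancer line MDA-MB-231. Nude mice are athymic and lack mature T cells, while their macrophages, NK cells and B cells remain. The 9 libraries form 3 groups of 3: UT, with no treatment; CTX, given cyclophosphamide, an alkylating chemotherapy drug; and CAU, given caulerpin, an indole alkaloid of green algae. The labels give no dose, time or age, and for CAU they name caulerpin alone, so whether those mice also had cyclophosphamide is not stated. The study's title concerns ovarian dysfunction after cyclophosphamide and macrophages.

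Type I interferons (IFN-alpha and IFN-beta) are secreted when a cell senses foreign or misplaced nucleic acid. They bind the receptor made of IFNAR1 and IFNAR2, whose kinases JAK1 and TYK2 phosphorylate STAT proteins. With IRF9 these form ISGF3, the complex that binds the interferon stimulated response element (ISRE) in promoters and turns on the interferon stimulated genes. Many of those genes encode antiviral effectors, others encode the pathway's own sensors and factors, and a low level of them is kept up in many tissues without infection, strongly in macrophages and other immune cells.

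The DNA element by which the family is known can be seen in the promoters of some of these genes, which are shown for that reason. The sequences are RefSeq's (build GRCm38.p6), each 100 bases long, read 5′ to 3′ on the gene's strand, and each lies upstream of the RefSeq start and outside annotated exons of GENCODE. Capitals mark every match to the ISRE core as searched here, which is GAAA, any 2 bases (NN) and GAAA again, or TTTC, NN and TTTC where it lies on the other strand. Isg15, Ifit1, Ifit3 and Rsad2 encode classical antiviral effectors, Oas1a had the lowest log2 fold change of the list in CAU, without passing the threshold, Bst2 had the highest value in CTX against UT, and Trim30a and Xaf1 fell in CTX with and without a match.
Isg15 (chr4:156200829-156200928, minus strand): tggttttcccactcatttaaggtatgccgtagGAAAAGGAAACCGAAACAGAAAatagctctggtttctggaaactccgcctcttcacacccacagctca
Ifit1 (chr19:34640764-34640863, plus strand): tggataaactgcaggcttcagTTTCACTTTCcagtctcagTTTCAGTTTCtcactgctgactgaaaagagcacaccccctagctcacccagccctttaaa
Ifit3 (chr19:34583359-34583458, plus strand): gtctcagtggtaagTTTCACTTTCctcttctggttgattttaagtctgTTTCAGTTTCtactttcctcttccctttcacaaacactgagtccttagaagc
Rsad2 (chr12:26456503-26456602, minus strand): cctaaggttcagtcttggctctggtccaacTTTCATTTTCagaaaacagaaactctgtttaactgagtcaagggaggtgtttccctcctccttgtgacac
Oas1a (chr5:120907526-120907625, minus strand): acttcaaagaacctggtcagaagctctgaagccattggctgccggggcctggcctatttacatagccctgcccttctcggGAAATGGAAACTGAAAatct
Bst2 (chr8:71537533-71537632, minus strand): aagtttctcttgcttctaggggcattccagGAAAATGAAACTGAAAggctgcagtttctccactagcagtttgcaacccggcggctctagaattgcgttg
Trim30a (chr7:104465194-104465293, minus strand): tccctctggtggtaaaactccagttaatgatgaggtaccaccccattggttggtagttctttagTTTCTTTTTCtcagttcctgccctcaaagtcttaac
Xaf1 (chr11:72301529-72301628, plus strand): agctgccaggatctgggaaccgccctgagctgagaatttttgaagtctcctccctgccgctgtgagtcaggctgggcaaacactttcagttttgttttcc

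In Isg15 the capitals are 3 overlapping copies in a row, in Oas1a and Bst2 2 overlapping copies, and in Ifit1 and Ifit3 2 separate copies on the opposite strand. Rsad2 and Trim30a show 1 copy each, also on the opposite strand, and Xaf1 shows none.

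The authors' deposited table holds, for each pair of groups, the log2 fold change with the p-value and adjusted p of DESeq2, and no value for a single library. Neither the level of a gene in each ovary nor the overlap between groups is therefore described, and the sequencing depth is unknown. Every log2 fold change below, and every p-value and adjusted p, is that of the authors' deposited table. The standard error (SE) and the 95% interval are those that the p-value implies. A gene is said to have changed, risen or fallen when its adjusted p over all genes was under 0.05. The header does not state which group is the numerator, and the second group named was read as the numerator. The opposite reading would turn every direction. The labels do not say whether the 3 libraries of a group came from separate mice, and p-values then measure only how these libraries spread, which may be technical.

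In CTX ovaries, 7 of the 32 genes fell and none rose, where 0.82% of 19260 genes were called lower and 0.472% higher. The genes that fell were Zbp1, Ifi44, Ifi47, Oasl2, Trim30a, Xaf1 and Parp14. The log2 fold change was below 0 in 28 of the 32, against 55.8% of all genes, and above 0 in 4, against 44.2%. The median was -0.47 for the list and -0.03 for all genes. The list was chosen with earlier results of these data known, so these shares describe it and do not test it. In CAU ovaries none of the 32 was called against either other group.

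**Figure D1:**
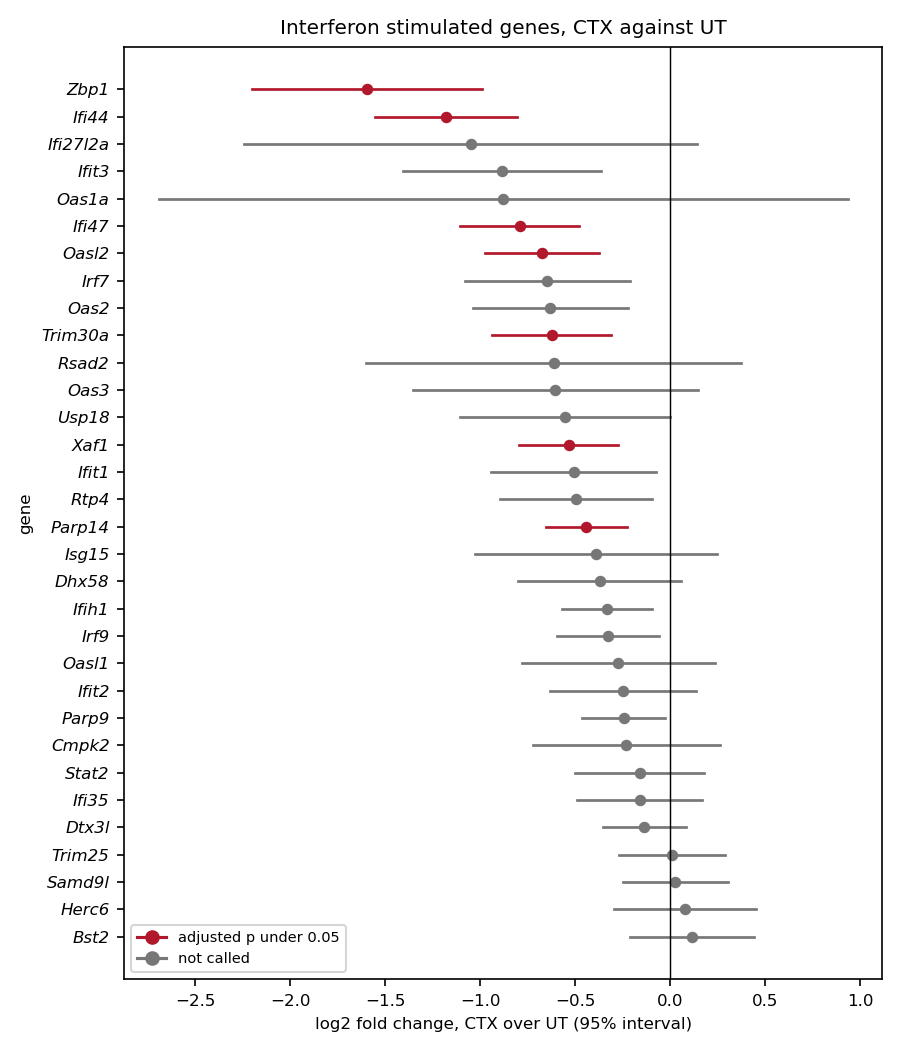
Log2 fold change of each of the 32 interferon stimulated genes in CTX over UT, with its 95% interval as a bar and genes with an adjusted p under 0.05 in red. The 7 red genes lie between -1.60 and -0.44, while Bst2, Herc6, Samd9l and Trim25 lie at or just above 0.

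The lowest log2 fold change of the whole list was that of a nucleic acid sensor. Zbp1 (gene ID 58203, chr2:173206612-173218923 in GENCODE M21, build GRCm38) encodes a sensor of Z-form nucleic acid that can trigger necroptosis. It was 3.02-fold lower in CTX than in UT, at -1.60 (SE 0.31, adjusted p = 0.000119) by the authors' deposited table. Dhx58, which encodes the RNA sensor LGP2, was at -0.37 (SE 0.22, adjusted p = 0.614) and Ifih1, which encodes MDA5, a sensor of long double-stranded RNA, at -0.33 (SE 0.12, adjusted p = 0.170) by the authors' deposited table. Neither of these passed, and the intervals of Zbp1 (-2.20 to -0.99) and Ifih1 (-0.57 to -0.10) do not overlap.

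None of the pathway's transcription factors on the list passed. Irf7, the factor that amplifies the interferon response, was at -0.65 (SE 0.22, adjusted p = 0.130), Irf9 at -0.33 (SE 0.14, adjusted p = 0.299) and Stat2 at -0.16 (SE 0.17, adjusted p = 0.931) per the authors' deposited table.

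The OAS proteins make 2-5A, the messenger that activates the RNA-cutting enzyme RNase L, and the OASL proteins are their relatives. Of the 5 genes, Oasl2 (gene ID 23962, chr5:114896936-114912234) fell, at -0.67 (SE 0.15, adjusted p = 0.00246) by the authors' deposited table. Oas2 was at -0.63 (SE 0.21, adjusted p = 0.103), Oas3 at -0.60 (SE 0.38), Oasl1 at -0.27 (SE 0.26) and Oas1a at -0.88 (SE 0.92) by the authors' deposited table, and none was called. Oasl2 and Oasl1 lie near each other on chromosome 5, with Oas2 and Oas3 3.24 kb apart further along it.

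The IFIT proteins bind viral RNA that lacks the cap marks of the cell's own. Their 3 genes lie side by side on chromosome 19, with 7.11 kb between Ifit2 and Ifit3 and 52.1 kb between Ifit3 and Ifit1. In the authors' deposited table the log2 fold changes were -0.89 for Ifit3 (SE 0.27, adjusted p = 0.0585), -0.51 for Ifit1 (SE 0.22, adjusted p = 0.344) and -0.25 for Ifit2 (SE 0.20, adjusted p = 0.821). None passed, Ifit3 narrowly. Ifit3 shares much of its sequence with Ifit3b, so its value depends on how shared reads were assigned, and the same holds for Oas1a, Ifit1, Trim30a and Ifi27l2a and their copies.

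ISG15 is a ubiquitin-like protein that is attached to other proteins by a dedicated set of enzymes. None of the 4 genes of that set on the list passed. Isg15 itself was at -0.39 (SE 0.32) and Usp18, which encodes the protease that removes ISG15 and also restrains the receptor, at -0.55 (SE 0.28) per the authors' deposited table. The ligase gene Herc6 was at 0.07 (SE 0.19) and Trim25, which encodes a ligase that acts on RIG-I, at 0.01 (SE 0.14) by the authors' deposited table. The 95% interval of Trim25, -0.27 to 0.29, leaves out the values of all 7 genes that fell, but it overlaps the interval of Parp14, -0.66 to -0.23. Of 4 further genes of ISG15 attachment from a fixed list 1 fell, where 0.82% of all genes were called lower. It was Uba7, the activating enzyme, at -0.44 (SE 0.12, adjusted p = 0.0183) per the authors' deposited table.

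Parp14, Dtx3l and Parp9 encode ADP-ribosyltransferases and the ubiquitin ligase partner of PARP9, and lie together on chromosome 16. Parp14 (gene ID 547253, chr16:35832874-35871544) fell, at -0.44 (SE 0.11, adjusted p = 0.0081) by the authors' deposited table. Parp9 was at -0.25 (SE 0.11, adjusted p = 0.392) and Dtx3l at -0.14 (SE 0.11, adjusted p = 0.841) per the authors' deposited table. Parp9 and Dtx3l run on opposite strands and overlap by 682 bases in GENCODE, and the strand setting of the counting is not given in the sources used here, so reads from the overlap cannot be assigned with certainty.

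Ifi47, which encodes a GTPase of the IRG family, fell by 0.79 (SE 0.16, adjusted p = 0.000296), and Ifi44, a cytoplasmic protein gene strongly induced by interferon, fell by 1.18 (SE 0.19, adjusted p = 9.99e-07) on the log2 scale by the authors' deposited table. In folds, Ifi44 (gene ID 99899, chr3:151730922-151749960) was 2.27-fold and Ifi47 (gene ID 15953, chr11:49076587-49096974) 1.73-fold lower. Trim30a, a TRIM protein gene, was at -0.63 (SE 0.16, adjusted p = 0.0125) and Xaf1, which encodes a binding partner of the apoptosis inhibitor XIAP, at -0.53 (SE 0.13, adjusted p = 0.00944) per the authors' deposited table. Both fell. Ifi27l2a had a value as low as these, -1.05 by the authors' deposited table, but with an SE of 0.61 it did not pass.

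The remaining effectors did not pass either. Rsad2 (viperin, which makes a chain-terminating nucleotide) and its neighbour Cmpk2, a mitochondrial nucleotide kinase gene 12.8 kb away on chromosome 12, were at -0.61 (SE 0.50) and -0.23 (SE 0.25) per the authors' deposited table. Rtp4, a chaperone gene for G protein-coupled receptors, was at -0.50 (SE 0.20) and Ifi35 at -0.16 (SE 0.17) by the authors' deposited table. Bst2, which encodes tetherin, the protein that holds budding virus at the cell surface, was at 0.11 (SE 0.17) and Samd9l, a translation inhibitor gene, at 0.03 (SE 0.14) per the authors' deposited table. The intervals of Bst2 (-0.21 to 0.44) and Samd9l (-0.25 to 0.30) leave out a fall of the size seen in any of the 7 called genes. That of Samd9l overlaps the interval of Parp14 (-0.66 to -0.23).

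Of the 25 genes that were not called, 21 were below 0, and 8 of these had a 95% interval wholly below 0. At an unadjusted p under 0.05, 15 of the 32 were lower and none higher, against 5.79% and 4.42% of all genes. The 7 calls, like every other call in CTX against UT, depend on the normal distribution behind the deposited p-values. With a t distribution of 6 degrees of freedom none of the 7 passed, nor did any gene of the whole table. That setting therefore does not set the 7 apart from other called genes.

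Genes upstream of the list were also compared in CTX against UT, where 0.82% of all genes were called lower and 0.472% higher. None of 6 interferon receptor genes passed (median -0.10). Ifnar1 was at 0.04 (SE 0.07) and Ifnar2 at -0.22 (SE 0.10, adjusted p = 0.427), and the receptor genes of interferon-gamma, Ifngr1 and Ifngr2, at -0.30 (SE 0.18) and 0.02 (SE 0.08) by the authors' deposited table. None of 12 genes of nucleic acid sensing (median -0.05) and none of 10 genes that restrain the pathway or clear nucleic acids (median -0.01) passed. Of 10 genes of JAK, STAT and IRF signalling outside the list, Stat3 fell (median of the 10, -0.19), at -0.38 (SE 0.11, adjusted p = 0.0320) per the authors' deposited table. Of 21 interferon genes, 6 had values in this comparison, and their median SE of 3.99 is too large to say whether they differed.

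Some other genes induced by interferon also fell in CTX against UT. Of all genes, 0.82% were called lower there, 0.472% were called higher and 55.8% lay below 0. Of 72 measured from a second list, 4 fell and none rose, 59 were below 0 and the median was -0.38. That list, like the first, was chosen with earlier results of these data known. In the authors' deposited table, Mndal, of the HIN-200 family of DNA-binding proteins, was at -0.85 (SE 0.15, adjusted p = 1.19e-05) and Ifi44l, the relative of Ifi44, at -1.25 (SE 0.32, adjusted p = 0.0138). Of 16 GTPase genes of the IRG and GBP families, known for their response to interferon-gamma, 9 fell and all 16 were below 0 (median -0.78), with Tgtp1 at -1.95 (SE 0.32, adjusted p = 1.17e-06) by the authors' deposited table. Whether these lists differ from one another was not tested.

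Some markers of white blood cells and of epithelium fell in the same comparison. There, 0.82% of all genes were called lower, 0.472% were called higher and 55.8% lay below 0. Of 5 pan-leukocyte genes 3 fell (median -1.46, median SE 0.33) and of 13 macrophage genes 6 fell (median -0.96, median SE 0.24). Of 9 NK and T cell genes 2 fell (median -2.22, median SE 1.12). Of 8 genes of the ovarian surface and tract epithelium 2 fell, Upk3b and Lrrn4, and all 8 were below 0 (median -1.48, median SE 0.83). Ptprc, which encodes the leukocyte antigen CD45, was at -1.46 (SE 0.33, adjusted p = 0.00308) per the authors' deposited table. None of 8 markers of plasmacytoid dendritic cells, the main interferon producers in blood, passed (median -0.45, median SE 0.78), nor did any of 6 markers of conventional dendritic cells (median -0.73). No gene passed among 5 B cell markers (median -0.23) or 6 neutrophil markers (median -1.28, median SE 1.42). Of 8 granulosa cell genes 1 rose (median 0.44). None of 8 oocyte genes (median 0.14), 5 endothelial genes (median -0.06) or 5 theca cell genes (median 0.19) passed. The part of these cells in the result was not tested, and in bulk tissue fewer cells of a type and less RNA per cell cannot be told apart. No level per library was used, so the ovarian label was not checked. All 8 granulosa and all 8 oocyte markers had values, but so had 19260 of the 19517 genes.

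**Figure D2:**
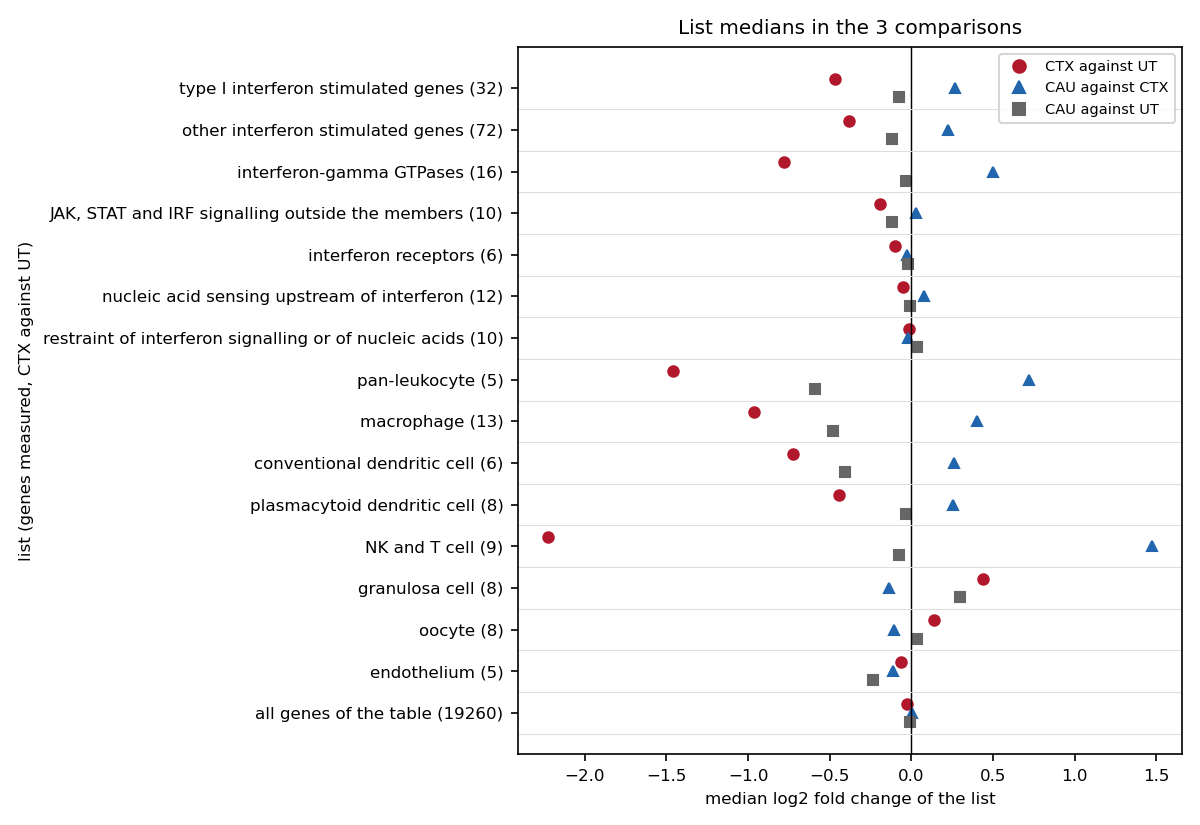
Median log2 fold change of the 32 interferon stimulated genes, of related gene lists and of cell type marker lists in each of the 3 comparisons, with the number of genes measured in CTX against UT in brackets. The list is at -0.47, 0.27 and -0.08 in the 3 comparisons, while the macrophage list is at -0.96, 0.40 and -0.48.

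In CAU against CTX, none of the 32 genes passed, where 0.312% of 19245 genes were called higher and 0.13% lower with DESeq2. Their log2 fold changes were above 0 in 29 of 32, against 52.3% of all genes, and below 0 in 3, against 47.7%, with a median of 0.27 against 0.00 for all genes. At an unadjusted p under 0.05, 8 were higher and 1 lower, against 3.32% and 2.04% of all genes. The 8 were Zbp1, Ifi44, Ifi47, Irf7, Oasl2, Ifit1, Xaf1 and Rtp4, and the 1 was Oas1a. With z scaled to a spread of 1 over all genes, 2 of the 32 passed, Ifi44 (higher) and Oas1a (lower), against 1.23% of all genes.

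This comparison shares the CTX libraries with the one above, so the values stand side by side and neither supports the other. Zbp1 was at -1.60 in CTX against UT and at 1.60 in CAU against CTX (SE 0.58, adjusted p = 0.408) by the authors' deposited table. Ifi44 was at -1.18 and 1.16 (SE 0.36, adjusted p = 0.172) and Ifi47 at -0.79 and 0.70 (SE 0.32, adjusted p = 0.754) per the authors' deposited table. For Xaf1 the pair of values by the authors' deposited table was -0.53 and 0.51 (SE 0.24), and for Oasl2 -0.67 and 0.55 (SE 0.26). Trim30a and Parp14 had smaller values in CAU against CTX than these, 0.28 (SE 0.19) and 0.14 (SE 0.14) by the authors' deposited table.

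Among the transcription factors, Irf7 was at 0.57 (SE 0.27, adjusted p = 0.830), Irf9 at 0.18 (SE 0.13) and Stat2 at 0.09 (SE 0.09) in CAU against CTX by the authors' deposited table. Of the IFIT genes, Ifit3 was at 0.64 (SE 0.37), Ifit1 at 0.53 (SE 0.25) and Ifit2 at 0.07 (SE 0.18) per the authors' deposited table. Isg15 was at 0.53 (SE 0.32) and its protease gene Usp18 at 0.60 (SE 0.43) by the authors' deposited table, while the ligase genes Herc6 and Trim25 were at 0.20 (SE 0.16) and -0.15 (SE 0.10). None of these passed. The RNA sensor genes Dhx58 and Ifih1 were at 0.35 (SE 0.30) and 0.13 (SE 0.18), and the neighbours Rsad2 and Cmpk2 at 0.38 (SE 0.44) and 0.15 (SE 0.23), per the authors' deposited table. Parp9 was at 0.26 (SE 0.14), Dtx3l at 0.07 (SE 0.12), Samd9l at 0.17 (SE 0.11) and Ifi35 at 0.23 (SE 0.24) by the authors' deposited table. Bst2 again lay close to 0, at 0.01 (SE 0.09) per the authors' deposited table. Besides Oas1a and Trim25, the gene below 0 was Ifi27l2a, at -0.15 (SE 0.62) by the authors' deposited table.

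The SE was larger in CAU against CTX than in CTX against UT for 20 of the 32 genes, against 39.2% of all genes. For Ifi44 it was 0.36 against 0.19 and for Zbp1 0.58 against 0.31. A log2 difference of like size passed in one comparison and not in the other for these genes. A gene that passed in one is not shown to differ from its value in the other.

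**Figure D3:**
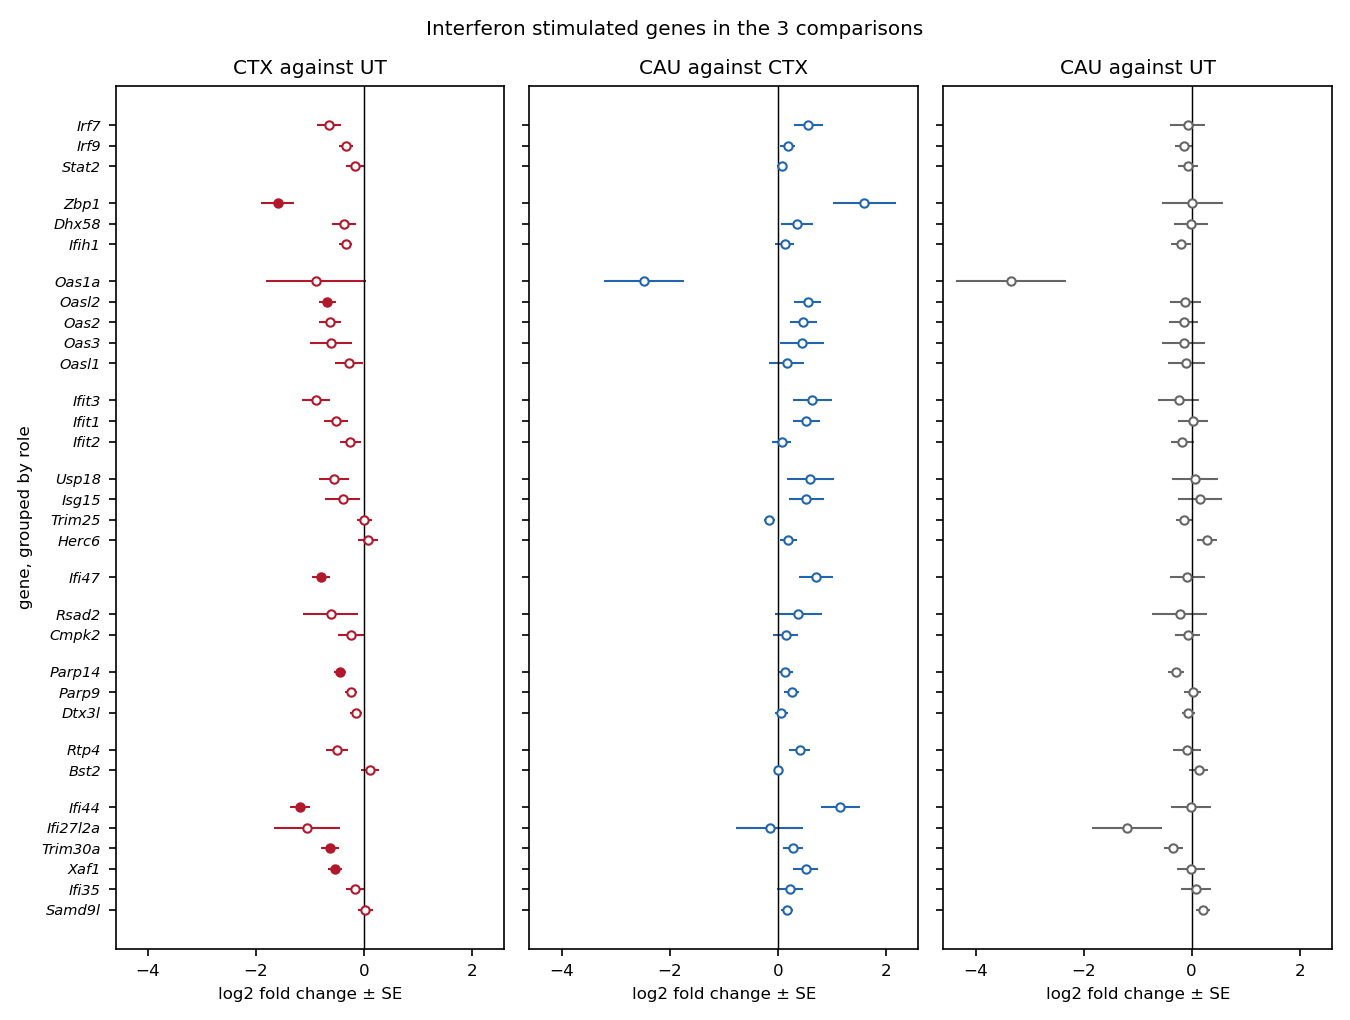
Log2 fold change ± implied SE of the 32 interferon stimulated genes in CTX against UT, CAU against CTX and CAU against UT, grouped by role, with filled points for an adjusted p under 0.05. Most genes lie left of 0 in the first panel, right of it in the second and near it in the third, where Oas1a at -3.35 and Ifi27l2a at -1.20 stand apart.

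Genes of the pathway that are not on the list were looked at in the same comparison, where 0.312% of all genes were called higher and 0.13% lower. Of all genes, 52.3% lay above 0 and 47.7% below it. Of the 72 other interferon stimulated genes 1 rose, Mndal, at 0.52 (SE 0.14, adjusted p = 0.0392), and of the 16 GTPase genes 1 rose, Tgtp1, at 1.51 (SE 0.40, adjusted p = 0.0394) per the authors' deposited table. The medians of these lists were 0.23 and 0.50. None of the receptor, sensing, restraint or JAK and STAT genes passed. Macrophage genes had a median of 0.40 (median SE 0.21) with 2 of 13 risen, and NK and T cell genes one of 1.47 (median SE 1.08) with 2 of 9 risen. The surface and tract epithelium genes had a median of 1.25 (median SE 0.68), with 8 of 8 above 0 and none called. The neutrophil genes had a median of 2.47 (median SE 1.26), with 5 of 6 above 0. The B cell genes had one of 0.27 (median SE 0.63), with 4 of 5 above 0. None of these was called either. The pan-leukocyte genes had a median of 0.72, with 5 of 5 above 0 and none called. Of 8 granulosa cell genes 1 fell (median -0.13), Inhbb, at -0.47 (SE 0.09, adjusted p = 0.000565) per the authors' deposited table. The oocyte and endothelial lists had 8 of 8 and 5 of 5 genes below 0, each with a median of -0.11. Of 5 theca cell genes 4 were above 0 (median 0.06). No oocyte, endothelial or theca cell gene was called. The part of these cells in the values of the interferon stimulated genes was not tested.

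CAU against UT gave no call among the 32 genes, where 0.0207% of 19302 genes were called lower and 0.0311% higher with DESeq2. Here 23 of 32 were below 0, against 52.2% of all genes, 9 were above it, against 47.8%, and the median was -0.08 against -0.01. Of the 32, 30 lay within 0.35 of 0 on the log2 scale, as did 73.8% of all genes, and the others were Oas1a and Ifi27l2a. Trim30a, at -0.34 by the authors' deposited table, lay just inside that cut. The cut was not among the settings planned beforehand, so the shares within it only describe these values. In CTX against UT 13 of 32 lay within it, against 66.9% of all genes, and in CAU against CTX 16 of 32, against 73.7%. At an unadjusted p under 0.05, 1 gene was lower (Oas1a) and none higher, against 2.26% and 1.2% of all genes.

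The 7 genes that fell in CTX lay between -0.34 and 0.01 in CAU against UT. Ifi44 was at -0.02 with a 95% interval from -0.75 to 0.72, Zbp1 at 0.01 with one from -1.10 to 1.13, and Xaf1 at -0.01 with one from -0.51 to 0.48 per the authors' deposited table. These intervals are wide enough to hold, for Zbp1, a 2-fold difference in either direction. Trim30a at -0.34 (interval -0.68 to 0.01) and Parp14 at -0.30 (interval -0.59 to 0.00) were the lowest of the 7 by the authors' deposited table. The highest values of the list were those of Herc6 at 0.28 (SE 0.19), Samd9l at 0.21 (SE 0.13) and Isg15 at 0.15 (SE 0.41) per the authors' deposited table. None of these was called. The pan-leukocyte and macrophage lists had medians of -0.59 and -0.48 in the same comparison, with none called. In these lists 5 of 5 and 12 of 13 genes were below 0, against 52.2% of all genes. The neutrophil list went the other way, with a median of 0.67 (median SE 1.48) and 5 of 6 genes above 0. The B cell list had a median of -0.27, with 3 of 5 below 0, and no gene of either list was called. For Ptprc the authors' deposited table gives -0.73 (SE 0.35) and -0.86 (SE 0.38) for Adgre1, the gene of the macrophage surface protein F4/80, and neither passed. The surface and tract epithelium list was at 0.04, with 4 of 8 below 0. The granulosa, theca and endothelial lists were at 0.30, 0.25 and -0.24, with none called. The NK and T cell list was at -0.07, with Ncr1, an NK cell receptor gene, also at -0.07 (SE 0.48) per the authors' deposited table. Whether the interferon stimulated genes and these markers differ was not tested.

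Oas1a had the lowest value of the list in both comparisons of CAU. In the authors' deposited table it was at -2.47 (SE 0.74, p = 0.000857, adjusted p = 0.123) in CAU against CTX and at -3.35 (SE 1.01, p = 0.000953, adjusted p = 0.383) in CAU against UT, and the other OAS and OASL genes of the list lay between 0.17 and 0.55 in the former and between -0.15 and -0.10 in the latter. Neither value of Oas1a passed, and both comparisons share the CAU libraries. The mouse has a cluster of Oas1 copies on chromosome 5, some of which are known for expression in the oocyte, and 7 of 8 were measured. Besides Oas1a the copies lay between -9.09 and -0.04 in CAU against CTX, where 0.13% of all genes were called lower. Of the copies 1 fell, Oas1d, at -9.09 (SE 2.24, adjusted p = 0.0171) by the authors' deposited table. Oas1d (chr5:120914536-120921652), next to Oas1a (chr5:120896256-120907521), had the lowest log2 fold change of all 19245 genes there and of all 19302 genes in CAU against UT, where it was at -9.00 (SE 2.36, adjusted p = 0.129) per the authors' deposited table. Ranked from the smallest DESeq2 p-value, Oas1d was number 57 in CAU against CTX and number 20 in CAU against UT.

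The values of the copies ranged widely. In CAU against UT, Oas1h was at -8.50 (SE 3.91) and Oas1f at -4.77 (SE 2.33), Oas1g at -1.38 (SE 0.88), Oas1c at -0.23 (SE 0.16) and Oas1e at 0.01 (SE 0.16) by the authors' deposited table. The intervals of Oas1c (-0.54 to 0.09) and Oas1e (-0.31 to 0.33) lie apart from those of Oas1a (-5.33 to -1.36) and Oas1d (-13.6 to -4.38), while those of Oas1f (-9.34 to -0.20) and Oas1g (-3.10 to 0.33) overlap that of Oas1c. In CTX against UT, Oas1a was at -0.88 (SE 0.92), Oas1d at 0.09 (SE 1.96) and Oas1h at 0.19 (SE 2.70) per the authors' deposited table. The oocyte markers had a median of -0.11 in CAU against CTX and 0.03 in CAU against UT, with none called. With no level per library, how many CAU ovaries carried the low values is not described. The paralogs are alike in sequence, so the split of reads between them is uncertain.

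**Figure D4:**
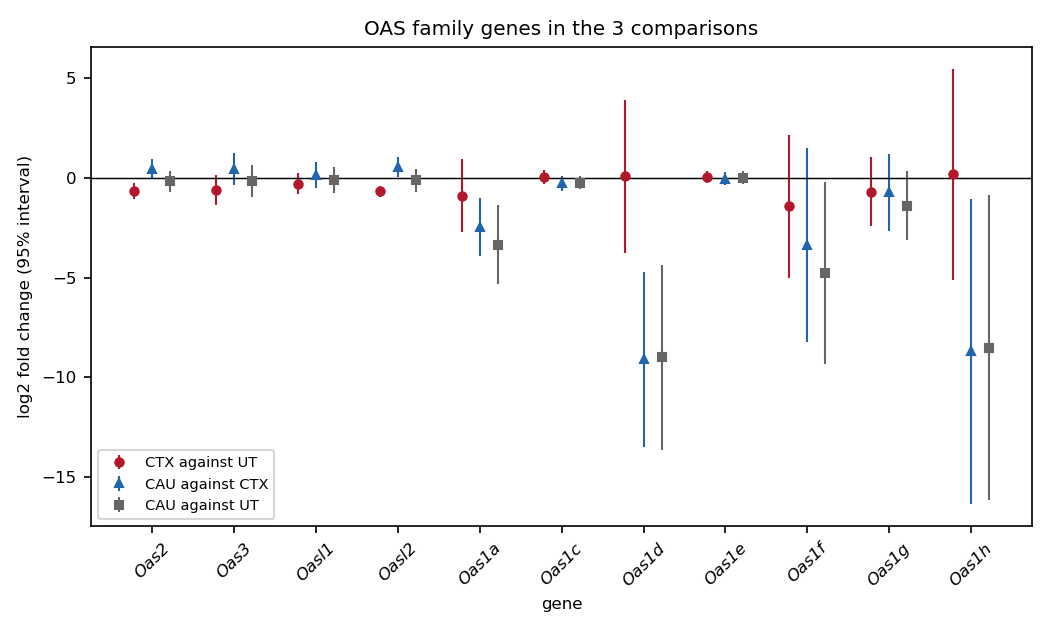
Log2 fold change with 95% interval of OAS family genes in the 3 comparisons. Oas1a, Oas1d, Oas1f and Oas1h lie at -2.47 to -9.09 in CAU against CTX, while Oas1c and Oas1e stay within 0.27 of 0 and Oas2, Oas3, Oasl1 and Oasl2 lie above 0.

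The promoters were compared with the CTX values as a description. RefSeq windows of 250 bases upstream and 50 bases past the start were found for 24 of the 32 genes. Oas2, Usp18, Dhx58, Rtp4, Zbp1, Ifi27l2a, Parp9 and Parp14 had no entry. Within the upstream bases, 9 of the 24 genes (37.5%) held the ISRE core on either strand, against 3.46% of 27025 genes in the same table. These were Bst2, Ifit1, Ifit3, Isg15, Oas1a, Oas3, Rsad2, Stat2 and Trim30a, and Ifih1 held it past the start. The core of the gamma-activated sequence (GAS), TTCNNNGAA, which reads the same on both strands, was found upstream in 3 of the 24 (12.5%) against 8.13% of all, in Oas1a, in Ifit2 and in Bst2, where it overlaps the ISRE core.

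Genes with and without these letters overlapped in their CTX values. Of the 9 genes with an upstream ISRE core 1 fell (Trim30a), with a median of -0.60 and a range from -0.89 to 0.11, and of the 15 without it 4 fell (Ifi44, Ifi47, Oasl2 and Xaf1), with a median of -0.27 and a range from -1.18 to 0.07. Bst2, Isg15 and Oas1a, with the runs of overlapping copies shown above, were at 0.11, -0.39 and -0.88 by the authors' deposited table. A gene without the letters in this window may carry the element elsewhere or in another spelling.

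**Figure D5:**
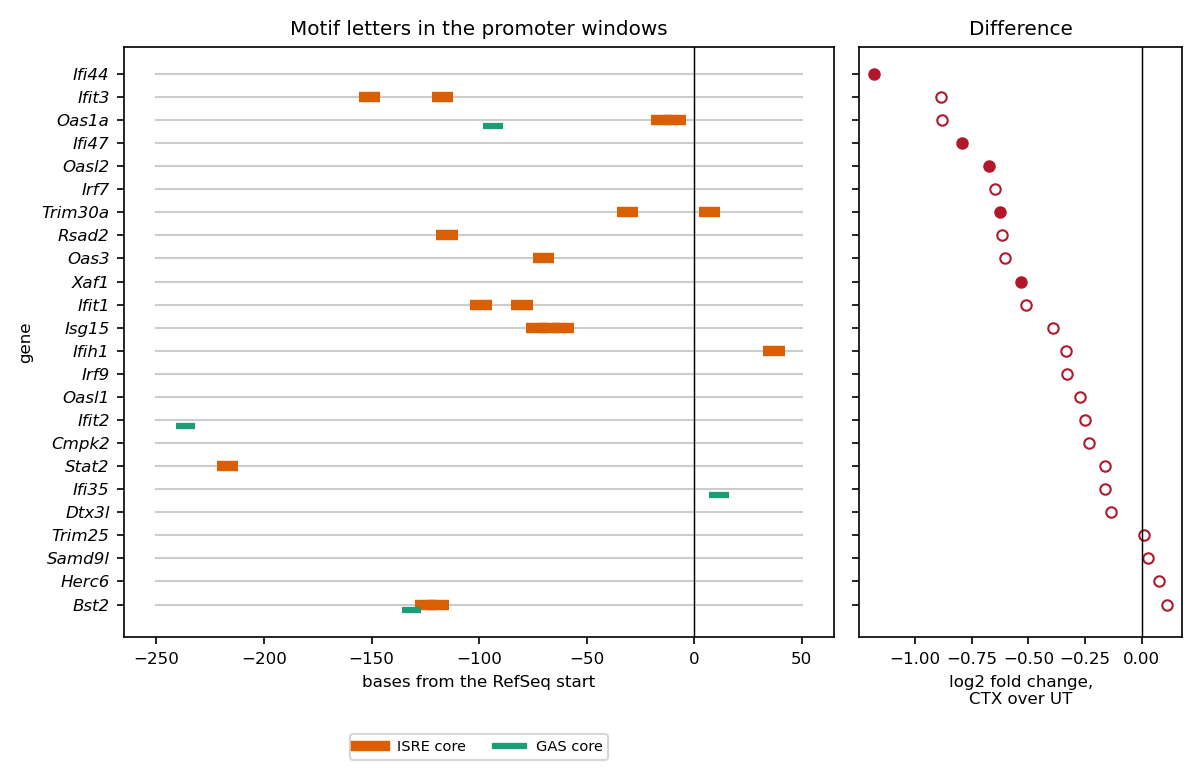
Positions of the ISRE core and the GAS core in the RefSeq promoter windows of 24 interferon stimulated genes (left, bases from the start, all windows of a gene on 1 line), ordered by their log2 fold change in CTX over UT (right, filled where the adjusted p was under 0.05). Matches occur from Ifit3 at -0.89 to Bst2 at 0.11, and 4 of the 5 called genes have none upstream.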

How the data were processed

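Ovarian RNA of 9 mouse libraries was sequenced. Tools and build named in the submitters' processing notes are DESeq2 1.44.0, RSEM 1.3.1, Bowtie2, HISAT2 and GRCm38.p6, each without its role and none stated for a given step of the authors. Annotation, strand setting, filters and covariates: not given in the sources used here. Values used were, per the file headers, the authors' deposited log2 fold change, DESeq2 p-value and q-value (here adjusted p) of each pair of groups. Recomputing the Benjamini-Hochberg adjustment over all genes with values changed the adjusted p by at most 7.74e-05. The 3 log2 fold changes added up within 0.01 of a constant in 18772 of 18773 genes, so all 3 follow 1 sign convention. The second group named was read as the numerator, under which Cdkn1a, a p53 target, was at 1.99 in CTX. Sequencing depth is unknown.

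The implied SE, the size of the log2 fold change over the size of z for the p-value, assumes an unshrunken Wald test. The members and all lists were chosen with earlier results of these data known. Named genes are all members, up to 3 genes of smallest adjusted p in CTX against UT from each list, and 7 fixed genes, of which 1 is not reported here; the Oas1 copies beyond these were added after their values were seen. Work used matplotlib 3.10.9, scipy 1.17.1, pandas 2.3.3 and numpy 2.4.6 under Python 3.11.15, and the scripts were tested on simulated data. Alternatives were other thresholds, filters, centring, scaling, null distribution and summaries.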

Additional observations from a re-analysis of the deposited data

How the results depend on the processing

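In CTX against UT, the 7 falls became 15 at an unadjusted p under 0.05 (10.2% of all genes) and 0 with a t distribution of 6 degrees of freedom in place of the normal, under which 0 genes of the whole table passed. The 6 other settings kept the count within 1.5 times. Under them Trim30a was lost at 0.01, Ifit3 was added at 0.10 and with genes of an SE up to 1, and Xaf1 and Parp14 were lost when at least 1.5-fold was asked. In CAU against CTX, the count of 0 became 9 at an unadjusted p and 2 (Ifi44 higher, Oas1a lower) with z scaled to a spread of 1, where these settings called 5.36% and 1.23% of all genes. In CAU against UT it became 1 at an unadjusted p and 1 with scaled z, Oas1a in both, against 3.46% and 1.32% of all genes. Centring on the median of all genes (-0.03, 0.00 and -0.01 in the 3 comparisons) turned the sign of no member. The other settings leave the log2 fold changes as they are, so no sign could turn under them. The median ran from -0.47 to -0.37 in CTX against UT, from 0.16 to 0.27 in CAU against CTX and from -0.08 to -0.06 in CAU against UT, over the centring, filter, paralog and weighting alternatives.

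No paired analysis was possible because the values used are comparisons between groups and carry no replicate numbers. Leaving out single replicates was not run for the same reason. Depth limits are unknown, so precision is described by the implied SE.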

Other observations

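Genes of the HIN-200 family, interferon-inducible DNA-binding proteins encoded together on mouse chromosome 1, were looked at after their values were seen. All 8 are also on the second list of 72 above, where Mndal and Ifi204 were already counted among the 4 falls. In CTX against UT, 2 of 8 fell (Mndal and Ifi204), where 0.82% of all genes were called lower. The 8 ranged from -1.52 to -0.19 with a median of -0.93. The authors' deposited table has Ifi204 at -1.14 (SE 0.29, adjusted p = 0.0154) and Ifi211 at -1.35 (SE 0.41, adjusted p = 0.0602). In CAU against UT the median was -0.47 and none passed, with Ifi204 at -0.72 (SE 0.36) and Mndal at -0.33 (SE 0.16) by the authors' deposited table.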
